A study of Mus musculus with 4 samples.

Results

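Antibody-secreting cells carry a large machinery for moving proteins into and through the endoplasmic reticulum (ER). Genes of that machinery and of the unfolded protein response (UPR) that regulates it were examined in LPS-stimulated B cells with and without the nuclear IκB protein IκB-ζ. The set was a list of gene symbols, drawn up with earlier results of these data known. It held 53 symbols, of which 52 were among the 30041 genes listed in the deposited files. Mzb1, an ER protein of B cells that takes part in antibody assembly, was not listed under that symbol and was skipped. Of the 52, 50 reached the score filter of 0.005 in at least 1 sample, and Fkbp11 and Ern1 did not.

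RNA-seq was performed on splenic B cells of C57BL/6 mice, cultured with LPS for 72 h, from 2 control and 2 cKO samples. Control mice were Nfkbiz fl/Δ, that is, they carried a loxP-flanked allele and an already deleted allele of Nfkbiz, the gene for IκB-ζ. The cKO mice were Nfkbiz fl/Δ Mb1 cre/+, in which Cre recombinase is expressed from the Mb1 (Cd79a) locus and deletes the loxP-flanked allele in the B lineage. Both groups therefore shared the deleted allele, and Cre was present in cKO only. B cells had been enriched from spleen by depleting cells with CD43, CD4 or Ter-119. No source used here says whether the samples of a group came from separate mice or cultures, so the p-values measure the spread between these samples, which may be technical.

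Proteins destined for secretion enter the ER through the Sec61 translocon, lose their signal peptide to the signal peptidase complex and receive glycans from the oligosaccharyltransferase. Chaperones such as BiP (Hspa5) and GRP94 (Hsp90b1) and the protein disulfide isomerases fold them, and ER-associated degradation (ERAD) removes those that fail to fold. Load on this system is sensed by IRE1 (Ern1), ATF6 and PERK (Eif2ak3), which induce chaperone and ERAD genes through the transcription factors XBP1, ATF6 and ATF4. B cells that become plasma cells expand the ER, and Blimp-1 (Prdm1) and XBP1 are required for that programme.

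Expression was given as a score per gene with no stated unit. In short single-transcript genes, 73.95 to 81.28% of the low scores, when multiplied by exon length, fell within 0.2 of a whole multiple of a common step, so the score was read as reads per exon base, scaled by library, and the inferred depth ran from 17470000 to 19880000 reads per sample. Nfkbiz had scores of 0.0241 and 0.0226 in control and of 0.0127 and 0.0116 in cKO samples (log2 fold change -0.94, SE 0.0956, n = 2 per group, adjusted p = 0.0282). The summed scores of 7 B cell markers were 5 and 5.43 in control and 4.8 and 4.98 in cKO samples, and all 7 passed the filter. Among them Cd79a, the locus that carries Cre in cKO, was lower (0.667 and 0.743 against 0.415 and 0.407, log2 fold change -0.78, SE 0.0843, adjusted p = 0.0294). Of 12 listed myeloid markers, 4 passed the filter and 0 were called (Lyz1 and Lyz2 when the fit blocked on the replicate number). The summed scores of the list were 0.183 and 0.174 in control and 0.217 and 0.218 in cKO samples. Most of each sum was Itgam, which overlapped (0.141 and 0.15 against 0.135 and 0.158), as did Fcgr1, S100a8 and Mpo. The difference lay in Lyz1, Lyz2, Csf1r, Cd14, Emr1 and Cd68, each with both cKO scores above both control scores. Lyz2 led that difference (0.0205 and 0.0112 against 0.0485 and 0.0329, adjusted p = 0.0961, with 0.00124 under the block and 0.00124 to 0.395 over 11 alternatives), and S100a9 and Elane were at 0 in all 4 samples. The 12 listed T and NK cell markers stayed below the filter, with sums of 0.00376 and 0.0035 in control and 0.00648 and 0.00568 in cKO samples. The erythroid markers summed to 0.0134 in control 1 and to between 0.00218 and 0.00263 in the other samples, and Slc4a1 was at 0 throughout. Control 2 stood apart at H2-Ea-ps, by its symbol a pseudogene of the major histocompatibility complex, with a score of 1.15 against at most 0.00008 elsewhere. In the authors' list of genes lower in cKO, H2-M2 and Msh5 were also higher in control 2 than in the other samples. Whether the control samples shared the same genetic background was not tested. The part of these other cells and of the control libraries in the results on ER genes was not tested.

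The question asked of the ER genes was whether the antibody secretion machinery differed between control and cKO B cells. Most of its members had lower scores in cKO B cells, by modest amounts. The chaperones were at a median log2 fold change of -0.46 and the ERAD genes at 0.02. The cKO scores were both below the lower control score for 38 of the 50 members past the filter (76%), against 30.1% of all 9727 genes tested. They were both above the higher control score for 4 members (Ssr4, Sec62, Herpud1 and Eif2ak3), against 28.1% of all genes tested, and the groups overlapped for 8. The median log2 fold change of the 50 members was -0.25, against -0.01 over all genes tested. Among the more highly expressed genes, with a score above 0.05, it was -0.26 for 29 members and -0.07 over all 1933 genes. Together the 52 listed members summed to scores of 4.3 and 3.8 in control and 3.23 and 3.38 in cKO samples.

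Few of these differences passed the test of single genes. Creld2, Ero1lb and Derl3 were called lower in cKO (limma, adjusted p under 0.05), which is 3 of 50, while 1.25% of all genes tested were called lower. No member was called higher, against 0.812% of all genes tested. At an unadjusted p under 0.05 there were 24 of 50 members lower and 2 higher, beside 1117 lower and 1052 higher of all 9727 genes. Derl3 passed the filter only through the control samples, so a difference was built into its entry. Without it the median of the remaining 49 members was -0.25 as well, and 37 of them had each cKO score below each control score. In RNA from mixed cultures, fewer cells of a type and less RNA per cell cannot be told apart, and this holds for every value here.

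**Figure D1:**
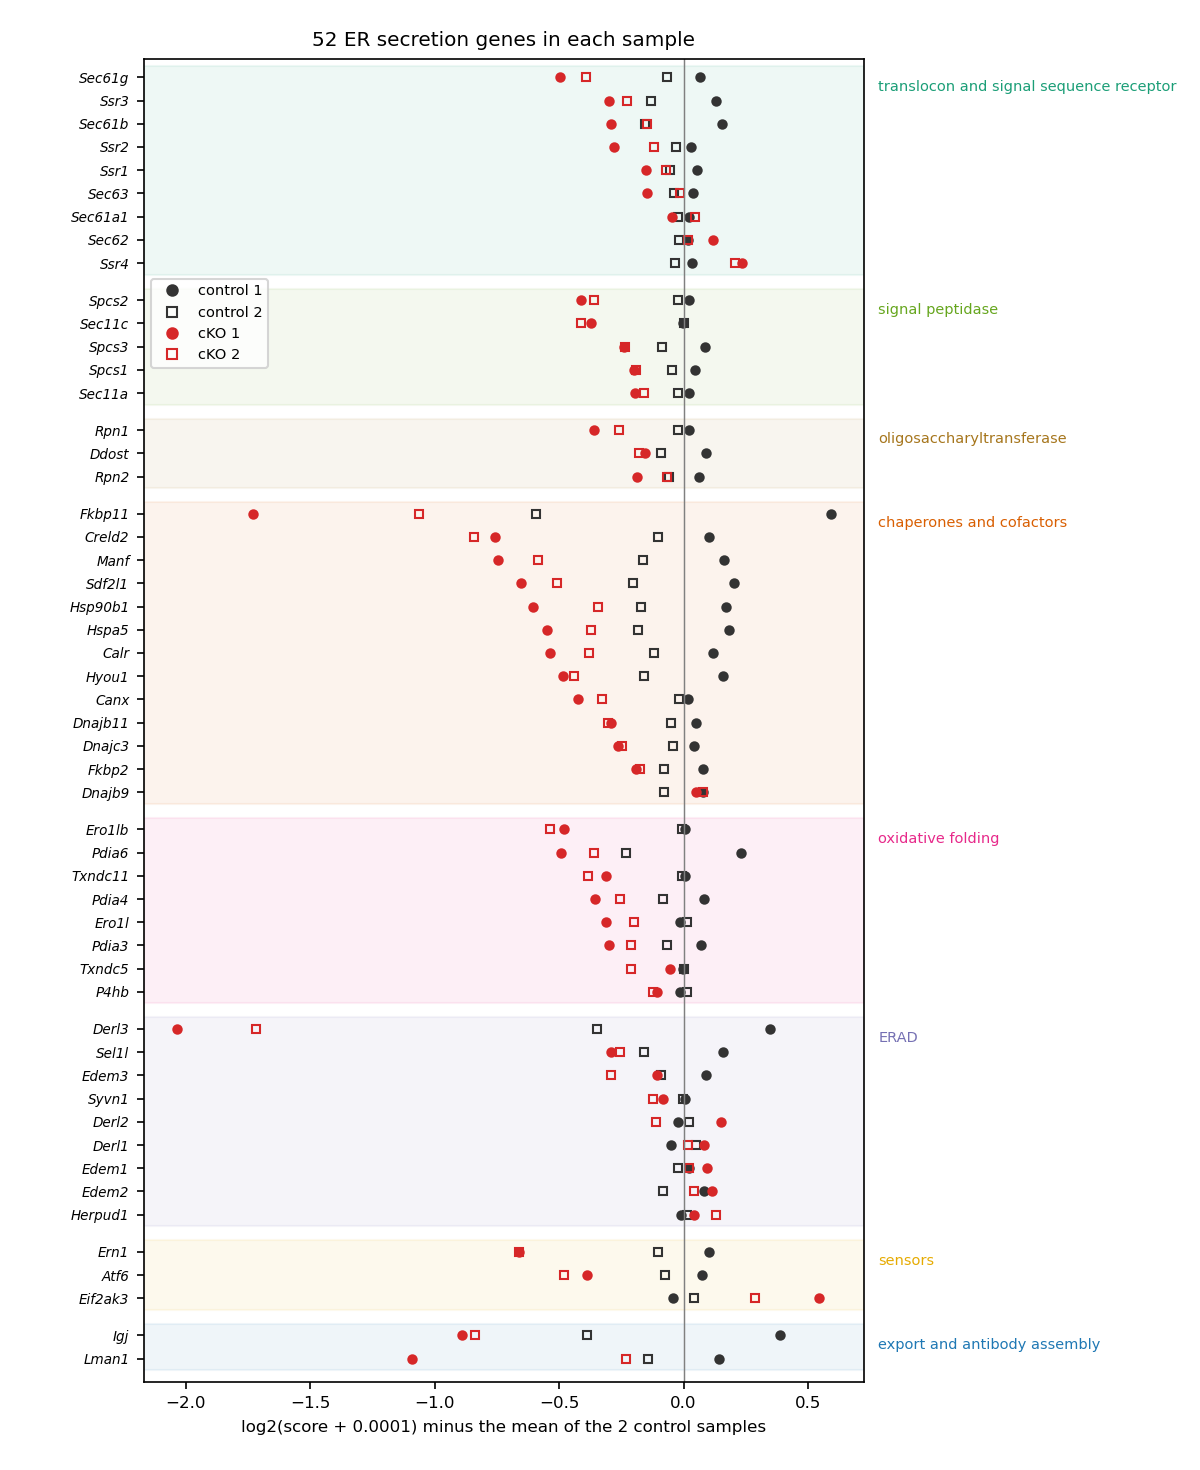
Each row is an ER secretion gene and each symbol a sample (black, control; red, cKO; filled circles, sample 1; open squares, sample 2), placed by its log2(score + 0.0001) minus the mean of the 2 control samples. Red symbols lie to the left for most genes, furthest for Derl3 and Fkbp11, while most ERAD genes lie around 0 and Eif2ak3 lies to the right.

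The control samples were not alike across this set. Control 1 exceeded control 2 for 44 of the 52 listed members (84.6%), against 48.1% of all genes tested. It was the highest of the 4 samples for 38 members, and cKO 1 was the lowest for 32. The median fold between the 2 control samples was 1.09, and that between the 2 cKO samples was 1.06. For 11 of the 12 tested chaperones and cofactors, control 2 lay between control 1 and the cKO samples. Leaving out control 1 brought the median of the 50 members to -0.16, and leaving out control 2 brought it to -0.32. Without cKO 1 it was -0.23, and without cKO 2 it was -0.29. The calls changed with the sample left out.

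Creld2 encodes an ER-resident protein with EGF-like domains that is induced by ER stress. On NCBIM37 (mm9) it spans chr15:88650076-88657111 on the plus strand. Its scores were 0.0223 and 0.0194 in control and 0.0123 and 0.0116 in cKO samples, which were 57.1% of control on average, and the groups did not overlap. The log2 fold change was -0.80 (SE 0.106, n = 2 per group, adjusted p = 0.0345). Its adjusted p ranged from 0.0104 to 0.204 over 11 alternative analyses and passed the threshold in 7.

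Ero1lb encodes an oxidase that renews the disulfide-forming capacity of the protein disulfide isomerases, and it spans chr13:12658150-12701793 on the plus strand of NCBIM37. Its scores were 0.0273 and 0.0271 in control and 0.0195 and 0.0187 in cKO samples, or 70.2% of control. Both groups were tight and well separated, with a log2 fold change of -0.51 (SE 0.0826, n = 2 per group, adjusted p = 0.0488). The adjusted p ranged from 0.0416 to 0.248 and passed in 4 of 11 alternatives, and it was 0.0652 when the fit blocked on the replicate number. The related oxidase Ero1l had scores of 0.0126 and 0.0128 in control and of 0.0102 and 0.011 in cKO samples (log2 fold change -0.25, SE 0.0971, adjusted p = 0.21).

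Derl3 encodes a derlin, a membrane protein of ERAD, and spans chr10:75356143-75358686 on the plus strand of NCBIM37. It had the largest difference of the set on the log2 scale. Its scores were 0.00935 and 0.00573 in control and 0.00171 and 0.00216 in cKO samples, or 25.7% of control. These scores correspond to an inferred 223 and 140 reads in control and 45 and 50 reads in cKO samples, the fewest behind any call in the set. The log2 fold change was -1.88 (SE 0.303, n = 2 per group, adjusted p = 0.0485), and the adjusted p ranged from 0.00768 to 0.219, passing in 5 of 11 alternatives. The groups overlapped in both paralogues. Derl1 had 0.0326 and 0.0349 in control against 0.0357 and 0.0342 in cKO samples, and Derl2 had 0.0243 and 0.0251 against 0.0275 and 0.0229. Their log2 fold changes were 0.05 (SE 0.086, adjusted p = 0.748) and 0.02 (SE 0.112, adjusted p = 0.932), the latter being -0.11 without cKO 1.

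The 250 bases before the start of these 3 genes and of Hspa5, the best known target of the UPR, are given here because all 4 hold the ER stress response element (ERSE), the site through which ATF6 and XBP1, together with the CCAAT-binding factor NF-Y, act on chaperone genes. Sequences are those of RefSeq on GRCm38.p6, a later build than that of the scores, written 5′ to 3′ in the direction of the gene. Capitals mark the 19 bases of the element, which in Creld2, Derl3 and Ero1lb reads on the opposite strand.
Creld2, chr15:88819396-88819645, plus strand: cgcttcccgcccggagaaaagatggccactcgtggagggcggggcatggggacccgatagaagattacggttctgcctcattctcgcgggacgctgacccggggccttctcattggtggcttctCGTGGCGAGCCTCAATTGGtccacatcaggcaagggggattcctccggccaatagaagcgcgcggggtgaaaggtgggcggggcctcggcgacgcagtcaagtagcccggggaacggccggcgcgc
Derl3, chr10:75893148-75893397, plus strand: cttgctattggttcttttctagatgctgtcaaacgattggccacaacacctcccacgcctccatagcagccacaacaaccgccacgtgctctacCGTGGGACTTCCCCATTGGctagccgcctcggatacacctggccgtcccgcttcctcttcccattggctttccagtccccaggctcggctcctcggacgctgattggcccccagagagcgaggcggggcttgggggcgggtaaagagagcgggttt
Ero1lb, chr13:12565633-12565882, plus strand: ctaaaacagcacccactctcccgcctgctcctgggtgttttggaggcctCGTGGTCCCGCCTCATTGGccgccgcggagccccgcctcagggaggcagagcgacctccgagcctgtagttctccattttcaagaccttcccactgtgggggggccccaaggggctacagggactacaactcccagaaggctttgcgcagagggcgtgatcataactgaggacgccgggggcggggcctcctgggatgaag
Hspa5, chr2:34771840-34772089, plus strand: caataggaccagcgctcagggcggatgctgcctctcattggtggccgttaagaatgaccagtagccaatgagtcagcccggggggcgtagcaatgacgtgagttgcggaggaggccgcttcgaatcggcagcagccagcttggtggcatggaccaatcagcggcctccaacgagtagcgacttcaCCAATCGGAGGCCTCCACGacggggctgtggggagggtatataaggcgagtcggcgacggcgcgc

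The element was searched as the letters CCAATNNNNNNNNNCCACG on both strands of windows from 250 bases before to 50 bases after the start. RefSeq gave such a window for 43 of the 52 listed members, matched by gene identifier. The element was present in 10 of the 43 (23.3%), against 37 of all 27025 genes with a window (0.137%). The set was chosen to hold chaperone and UPR genes, the known carriers of this element. Its higher share there is therefore background and no result of these data. The 10 members with it are shown with the coordinates of each match on GRCm38.p6, read along the strand that carries it. The fixed letters are in capitals and the spacer is in lower case. Hsp90b1 held 2 matches.
Calr, chr8:84847075-84847093, plus strand: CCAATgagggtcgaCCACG
Canx, chr11:50325800-50325818, minus strand: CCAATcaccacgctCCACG
Creld2, chr15:88819520-88819538, minus strand: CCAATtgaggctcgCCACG
Derl3, chr10:75893242-75893260, minus strand: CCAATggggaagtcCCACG
Dnajc3, chr14:118937827-118937845, plus strand: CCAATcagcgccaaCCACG
Ero1lb, chr13:12565682-12565700, minus strand: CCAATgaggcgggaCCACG
Hsp90b1, chr10:86705638-86705656, minus strand: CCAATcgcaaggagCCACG
Hsp90b1, chr10:86705533-86705551, plus strand: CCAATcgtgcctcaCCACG
Hspa5, chr2:34772025-34772043, plus strand: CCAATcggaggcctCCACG
Pdia6, chr12:17266491-17266509, plus strand: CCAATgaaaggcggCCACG
Syvn1, chr19:6046532-6046550, plus strand: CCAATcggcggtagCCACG

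These 10 genes are the chaperones Hspa5, Hsp90b1, Calr, Canx, Creld2 and Dnajc3, the folding enzymes Pdia6 and Ero1lb, and the ERAD genes Derl3 and Syvn1. Derl3 entered through the control samples only. For each of the other 9, each cKO score was below each control score, and their median log2 fold change was -0.46, with values from -0.80 to -0.10. Among the 31 other members with a window that passed the filter, 21 had each cKO score below each control score and the median was -0.18. Over all genes tested, 30.1% had that order. Of these 9, 2 were called (Creld2 and Ero1lb). The difference between these groups of members is a description and carries no test. Another 9 listed members had no window and are in neither group. Their log2 fold changes were -0.66 (Manf and Lman1), -0.46 (Hyou1), -0.44 (Atf6), -0.39 (Sec11c), -0.24 (Spcs3), -0.20 (Ssr2), 0.00 (Sec61a1) and 0.05 (Derl1). The tested chaperones and cofactors as a role also had a median of -0.46, so element and role were not separated.

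Matches to related elements were few. ERSE-II, searched as ATTGGNCCACG on both strands, was present in Dnajb11 and Herpud1 and in 0.0444% of all genes with a window. Dnajb11 had a log2 fold change of -0.30 (adjusted p = 0.13) and Herpud1 one of 0.09 (adjusted p = 0.557). The core of the UPR element, TGACGTGG, was present in Txndc5 and Txndc11 and in 0.714% of all genes, and these genes had log2 fold changes of -0.13 (adjusted p = 0.407) and -0.35 (adjusted p = 0.109). A further 3 genes outside the set that passed the filter held the ERSE, namely Alg12, Hnrnpa3 and Pan2. Alg12 lies back to back with Creld2, and the match is the same 19 bases. Its scores were 0.00632 and 0.005 in control and 0.00453 and 0.00416 in cKO samples (log2 fold change -0.37, SE 0.189, adjusted p = 0.311), and in Hnrnpa3 and Pan2 too each cKO score was below each control score, with log2 fold changes of -0.38 (adjusted p = 0.123) and -0.15 (adjusted p = 0.411). None of these 3 was called, and they were looked up after the values of the set were known.

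**Figure D2:**
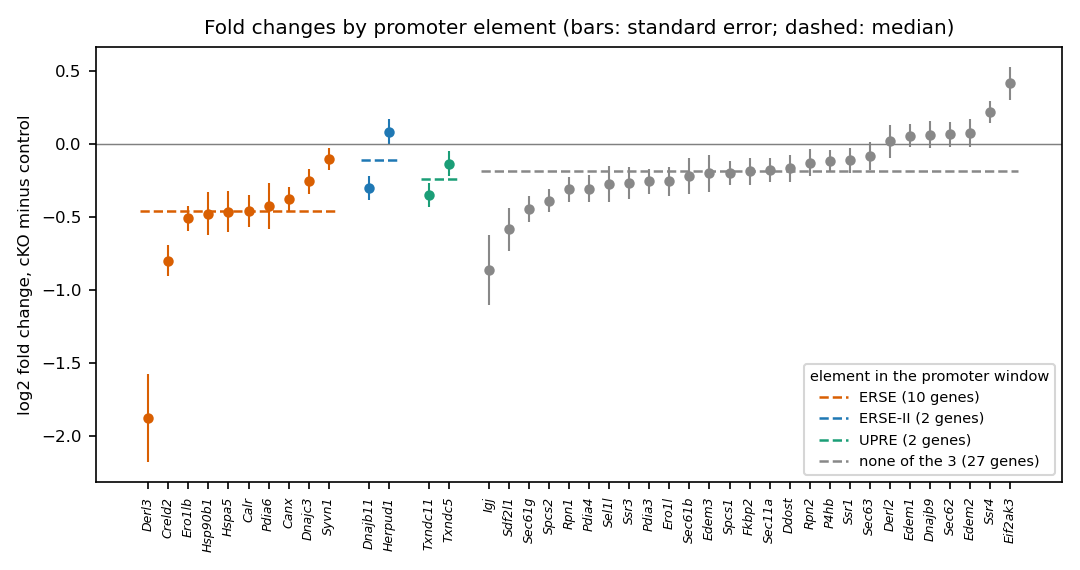
Log2 fold change (cKO minus control, vertical axis) of the 41 ER genes with a promoter window that passed the filter, grouped by the element found in the window; bars are standard errors and dashed lines group medians. The 10 genes with an ERSE lie below 0, with a median of -0.46 (also without Derl3, which entered through the control samples only), and the 27 genes with none of the 3 elements range from -0.86 to 0.42, with a median of -0.18.

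Chaperones and their cofactors formed the largest group and, with Calr, Hsp90b1 and Hspa5, held the 3 highest control scores of the set, the score being read per exon base. Of its 13 listed genes 12 passed the filter. Each cKO score was below each control score in 11 of these, against 30.1% of all genes tested. In the group 1 gene was called (Creld2), and the median log2 fold change was -0.46. Summed scores of the group were 1.49 and 1.25 in control and 0.952 and 1.05 in cKO samples. Calr, encoding the lectin chaperone calreticulin, had the highest score of all members, with 0.465 and 0.395 in control and 0.295 and 0.329 in cKO samples (log2 fold change -0.46, SE 0.109, adjusted p = 0.105). Its membrane-bound relative calnexin (Canx) had 0.159 and 0.155 against 0.117 and 0.125 (log2 fold change -0.38, SE 0.0802, adjusted p = 0.0887).

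Hspa5, encoding BiP, the Hsp70 chaperone of the ER that binds free immunoglobulin heavy chains, had scores of 0.246 and 0.191 in control and of 0.148 and 0.168 in cKO samples. Control 2 lay closer to cKO 2 than to control 1, although the groups did not overlap, and the log2 fold change was -0.46 (SE 0.139, n = 2 per group, adjusted p = 0.149). Hsp90b1, the Hsp90 of the ER, showed the same order of samples, with 0.253 and 0.199 against 0.148 and 0.177 (log2 fold change -0.47, SE 0.146, adjusted p = 0.152). Hyou1, a large Hsp70-like protein that acts as a nucleotide exchange factor of BiP, had 0.042 and 0.0336 against 0.0268 and 0.0276 (log2 fold change -0.46, SE 0.123, adjusted p = 0.124). These abundant chaperones stood at 71.7 to 72.6% of control on average (Calr, Hspa5, Hsp90b1 and Hyou1), and none of the 4 passed the test.

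Among the other chaperones and cofactors, Manf and Sdf2l1 were also among the 10 members with the largest absolute log2 fold change. Manf, a secreted ER stress protein that binds BiP, had scores of 0.112 and 0.0892 in control and of 0.0595 and 0.0667 in cKO samples (log2 fold change -0.66, SE 0.131, adjusted p = 0.076). Sdf2l1, a partner of the ER Hsp40 proteins, had 0.0525 and 0.0397 against 0.029 and 0.032 (log2 fold change -0.58, SE 0.148, adjusted p = 0.116). In both genes the higher cKO sample was below the lower control sample, and neither passed the test, although Manf did when the fit blocked on the replicate number (adjusted p = 0.0435, with 0.0107 to 0.351 over 12 alternatives). Fkbp11, a prolyl isomerase known from secretory cells, was below the filter, with scores of 0.00245 and 0.00102 in control and of 0.00041 and 0.00071 in cKO samples.

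Among the Hsp40 cochaperones of BiP the values were unequal. Dnajb11 (0.0625 and 0.0584 against 0.0493 and 0.0489, adjusted p = 0.13) and Dnajc3 (0.0269 and 0.0254 against 0.0218 and 0.022, adjusted p = 0.172) had lower cKO scores without overlap. Dnajb9, a target of the IRE1 and XBP1 branch, had 0.0242 and 0.0217 in control and 0.0237 and 0.0242 in cKO samples, so that the groups overlapped (log2 fold change 0.06, SE 0.0926, adjusted p = 0.701), and leaving out control 2 gave -0.01. Fkbp2, another prolyl isomerase, had a log2 fold change of -0.18 (adjusted p = 0.301).

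**Figure D3:**
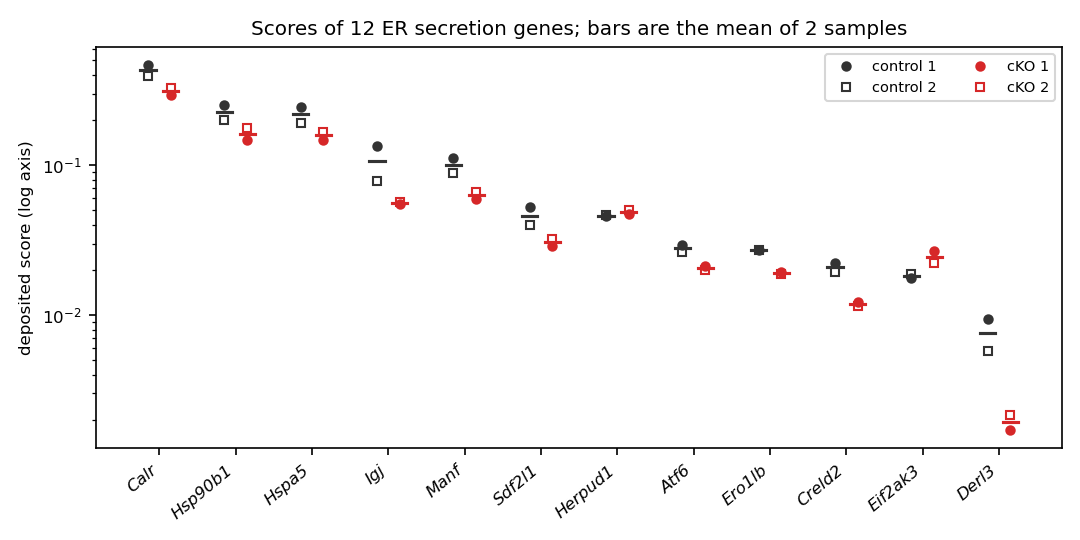
Deposited scores (log axis) of 12 ER genes in the 2 control (black) and 2 cKO (red) samples, with bars at the mean of each group. Groups do not overlap for any of the 12 genes, of which Derl3, Creld2 and Ero1lb were called. Control 1 lies above control 2 for the chaperones and Igj, Herpud1 is nearly level and Eif2ak3 is higher in cKO.

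All 8 genes of oxidative folding had each cKO score below each control score, against 30.1% of all genes tested. Their median log2 fold change was -0.28, with values from -0.51 to -0.11. Only Ero1lb among them was called. Pdia6 had 0.211 and 0.153 in control and 0.128 and 0.14 in cKO samples (log2 fold change -0.42, SE 0.159, adjusted p = 0.204), a wide spread between the controls. For Pdia3, which works with the lectin chaperones on glycoproteins, the scores were 0.194 and 0.176 against 0.15 and 0.16 (log2 fold change -0.25, adjusted p = 0.185), and for Pdia4 they were 0.157 and 0.14 against 0.116 and 0.124 (log2 fold change -0.30, adjusted p = 0.153). The differences were smallest for P4hb, the founding member of the family (0.115 and 0.117 against 0.107 and 0.106, log2 fold change -0.11, adjusted p = 0.41), and for Txndc5, a disulfide isomerase abundant in plasma cells (0.149 and 0.149 against 0.144 and 0.129, log2 fold change -0.13, SE 0.0874, adjusted p = 0.407). Txndc11 had 0.0222 and 0.0221 against 0.0178 and 0.0169 (log2 fold change -0.35, adjusted p = 0.109).

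Genes for entry into the ER had smaller differences in both directions. Of 9 genes of the translocon and its signal sequence receptor, 4 had both cKO scores below both control scores (44.4%) and 2 had both above. Over all genes tested these shares were 30.1 and 28.1%, and counts over so few genes are no result about the role. Of the 9 genes 0 were called, and the median log2 fold change was -0.11. Sec61a1, the channel-forming subunit, was at 0.0683 and 0.0663 in control and at 0.0651 and 0.0695 in cKO samples, with a log2 fold change of 0.00 (SE 0.0824, adjusted p = 1). The small subunits had lower cKO means, with 0.117 and 0.094 against 0.0856 and 0.0947 for Sec61b (log2 fold change -0.22, SE 0.126, adjusted p = 0.355) and 0.1 and 0.0915 against 0.068 and 0.0731 for Sec61g (log2 fold change -0.44, SE 0.0909, adjusted p = 0.0801). Sec61b overlapped between groups and Sec61g did not. Ssr4, a subunit of the signal sequence receptor, had the reverse order, with 0.144 and 0.138 in control and 0.166 and 0.163 in cKO samples (log2 fold change 0.22, SE 0.077, adjusted p = 0.188), while Ssr1, Ssr2 and Ssr3 had log2 fold changes of -0.11, -0.20 and -0.26. The accessory proteins Sec62 and Sec63 had values of 0.07 (adjusted p = 0.657) and -0.08 (adjusted p = 0.633).

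All 5 signal peptidase genes had each cKO score below each control score, against 30.1% of all genes tested. Their log2 fold changes ran from -0.39 to -0.18, with a median of -0.24 and 0 calls. The catalytic subunit gene Sec11c had 0.191 and 0.192 against 0.148 and 0.144 (log2 fold change -0.39, SE 0.0748, adjusted p = 0.073), whereas the other catalytic subunit gene, Sec11a, had 0.0388 and 0.0375 against 0.0334 and 0.0341 (log2 fold change -0.18, adjusted p = 0.265). Spcs2, an accessory subunit, had 0.0904 and 0.0876 against 0.0669 and 0.0693 (log2 fold change -0.39, SE 0.0788, adjusted p = 0.0793). Spcs1 and Spcs3 had log2 fold changes of -0.20 (adjusted p = 0.233) and -0.24 (adjusted p = 0.216). The 3 oligosaccharyltransferase genes, Rpn1, Rpn2 and Ddost, had log2 fold changes of -0.31 (adjusted p = 0.124), -0.13 (adjusted p = 0.445) and -0.17 (adjusted p = 0.343), again without overlap between groups.

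Most ERAD genes had log2 fold changes near 0. Of 9 ERAD genes, 4 had lower scores in both cKO samples (44.4%), 1 had higher scores in both, and 4 overlapped. The lower and higher shares over all genes tested were 30.1 and 28.1%, and 9 genes are too few to tell such shares apart. The median log2 fold change was 0.02. The summed scores were 0.315 and 0.304 in control and 0.306 and 0.296 in cKO samples, so that the groups overlapped. Herpud1, a UPR-induced scaffold of the degradation complex, had 0.0457 and 0.0464 in control and 0.0474 and 0.0505 in cKO samples (log2 fold change 0.09, SE 0.0825, adjusted p = 0.557). Sel1l, the adaptor of the ubiquitin ligase, had 0.0278 and 0.0224 against 0.0204 and 0.0209 (log2 fold change -0.27, SE 0.123, adjusted p = 0.259), and the ligase itself, Syvn1, had 0.0797 and 0.0793 against 0.0751 and 0.0731 (log2 fold change -0.10, adjusted p = 0.465). The EDEM proteins, which mark misfolded glycoproteins, had log2 fold changes of 0.06 for Edem1 (adjusted p = 0.685), 0.08 for Edem2 (adjusted p = 0.663) and -0.20 for Edem3 (adjusted p = 0.385). Derl3 was the exception in this group. No test compared ERAD with folding genes.

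The groups were not in the same order for the 3 sensors, and no sensor was called. Atf6 had scores of 0.0294 and 0.0265 in control and of 0.0213 and 0.02 in cKO samples (log2 fold change -0.44, SE 0.0954, adjusted p = 0.0929). Eif2ak3, encoding PERK, had 0.0178 and 0.0188 in control and 0.0267 and 0.0224 in cKO samples (log2 fold change 0.42, SE 0.113, adjusted p = 0.126), the largest value above 0 in the set. Ern1, encoding IRE1, was below the filter and was not tested. Its scores were 0.00386 and 0.00333 in control and 0.00223 in both cKO samples, or 62% of control. Neither group overlapped the other for any of the sensors, but the order of the groups was reversed for Eif2ak3.

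Igj, encoding the J chain that links the subunits of polymeric IgM, had the second largest difference among the tested members. Its scores were 0.134 and 0.0783 in control and 0.0552 and 0.0572 in cKO samples, or 53% of control, and the gap between the control samples was wider than that between control 2 and the cKO samples. The log2 fold change was -0.86 (SE 0.239, n = 2 per group, adjusted p = 0.13). Igj was called when the fit blocked on the replicate number (adjusted p = 0.0345), and over 12 alternatives its adjusted p ranged from 0.00314 to 0.493. Lman1, the cargo receptor ERGIC-53, had 0.0252 and 0.0207 in control and 0.0107 and 0.0194 in cKO samples (log2 fold change -0.66, SE 0.278, adjusted p = 0.235). The 2 cKO samples were 1.82-fold apart in Lman1, the largest such gap among the members.

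**Figure D4:**
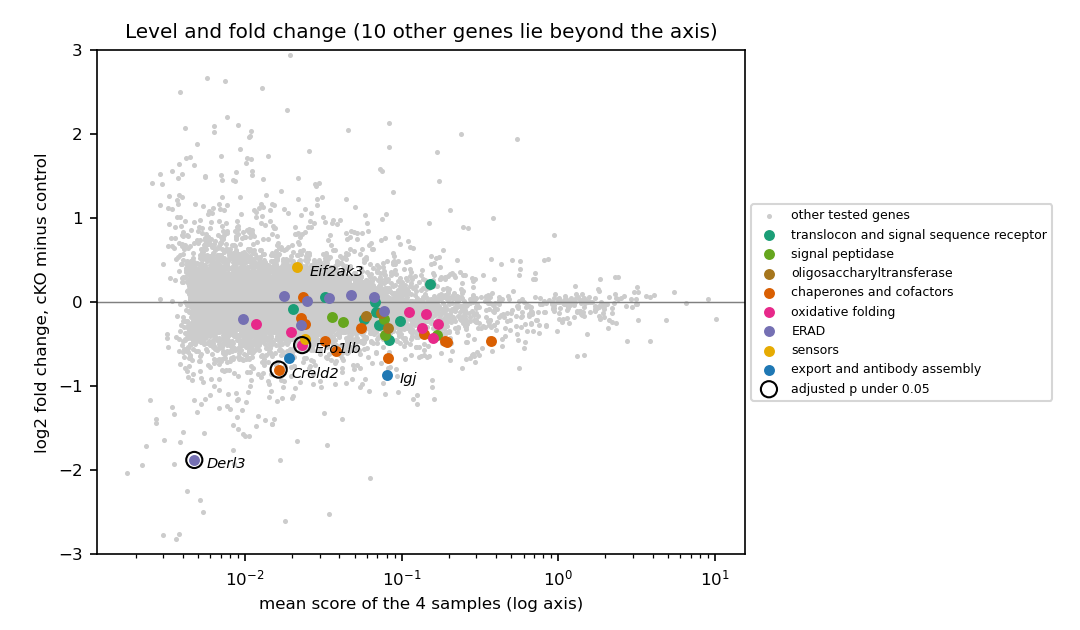
Mean score of the 4 samples (horizontal log axis) against log2 fold change, cKO minus control (vertical axis), for the genes tested (grey) and the 50 ER genes that passed the filter (coloured by role; rings, adjusted p under 0.05); 10 other genes lie beyond the axis. Most coloured points lie below 0, from the weakly expressed Derl3 at -1.88 to the abundant Calr at -0.46, within the spread of the grey points.

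Other genes of the pathway were taken from lists drawn up by function, with earlier results of these data known. Among 11 tested genes for UPR transcription factors and the PERK branch, 0 were called in either direction, and the median log2 fold change was -0.08. Xbp1 had 0.106 and 0.104 in control and 0.137 and 0.0944 in cKO samples, with overlapping groups (log2 fold change 0.11, SE 0.175, adjusted p = 0.729), and leaving out cKO 1 gave -0.16. The score of a gene covers its whole transcript, so the spliced form of Xbp1 made by IRE1 could not be separated. Atf4, the effector of PERK, had 0.135 and 0.123 against 0.104 and 0.102 (log2 fold change -0.32, SE 0.0859, adjusted p = 0.126), and its target Ddit3 (CHOP) had 0.014 and 0.0118 against 0.012 and 0.0146 (log2 fold change 0.04, SE 0.142, adjusted p = 0.873), with -0.08 without control 2 and -0.10 without cKO 2.

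Members of the signal recognition particle and its receptor, listed with Tram1 and Tram2 (12 tested, median -0.20), gave 0 calls in either direction. The same held for other glycosylation and glycan trimming genes (13 tested, median -0.07) and other chaperones and ERAD cofactors (25 tested, median -0.03). It also held for genes of COPII coats, export and retrieval (24 tested, median -0.06). The medians are log2 fold changes. Srp54a, Srp54b and Srp54c had log2 fold changes of -0.59, -0.62 and -0.66, the furthest below 0 among the 12, of which 2 were above 0. They are near-identical copies, so their values cannot be assigned to single genes with certainty, and each counts in the median. Erp44, which retains unassembled IgM and folding oxidases in the early secretory pathway, had 0.0616 and 0.0539 against 0.0417 and 0.0409 (log2 fold change -0.48, SE 0.0963, adjusted p = 0.076), and Prdx4, an ER peroxidase, had 0.0217 and 0.0219 against 0.0138 and 0.0172 (log2 fold change -0.49, SE 0.124, adjusted p = 0.114). These genes were named after their values were seen, as the furthest below 0 in their list.

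The regulators and products of antibody-secreting cells give the context of the set. Prdm1 was lower in cKO, with scores of 0.00835 and 0.00458 in control and of 0.00083 and 0.00075 in cKO samples (log2 fold change -2.82, SE 0.432, adjusted p = 0.0429). It passed the filter only through control 1, and without that sample its adjusted p was 0.0848. Prdm1 was the only call among 10 tested genes listed as plasma cell regulators, whose median log2 fold change was 0.24. The list was not split by direction of action, so its median is no measure of plasma cell formation. It holds the surface proteins Sdc1 and Slamf7 and the B cell factors Bach2, Bcl6 and Pax5. Each cKO score was below each control score in 4 genes and above it in 6, against 30.1 and 28.1% of all genes tested. Besides Prdm1, the lower ones were Ell2 (-0.46, adjusted p = 0.105), Pou2af1 (-0.30, adjusted p = 0.137) and Pax5 (-0.06). The higher ones were Slamf7 (0.83, adjusted p = 0.0793), Bach2 (0.48, adjusted p = 0.128), Zbtb20 (0.40), Bcl6 (0.33), Sdc1 and Irf4. Irf4, required for plasma cell formation, had 0.0609 and 0.0621 against 0.0712 and 0.0654 (log2 fold change 0.15, SE 0.0852, adjusted p = 0.349). Sdc1, encoding the plasma cell surface protein CD138, had the reverse order to the chaperones, with 0.00398 and 0.00418 in control and 0.00814 and 0.00604 in cKO samples (log2 fold change 0.77, SE 0.194, adjusted p = 0.116), and it passed the filter only through cKO.

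Of 19 immunoglobulin chain symbols, 5 were listed in the files and 4 passed the filter. Ighm, the constant region of the IgM heavy chain, had scores of 4.7 and 4.18 in control and of 3.33 and 3.1 in cKO samples (log2 fold change -0.47, SE 0.0876, adjusted p = 0.0696), and it was called with the replicate number as a block of the fit (adjusted p = 0.00506, with 0.00506 to 0.265 over 12 alternatives). Ighg had 0.185 and 0.16 against 0.126 and 0.116 (log2 fold change -0.51, SE 0.102, adjusted p = 0.076). Iglv1, a light chain variable gene, had 0.602 and 0.444 against 0.466 and 0.502, with overlapping groups (log2 fold change -0.10, SE 0.15, adjusted p = 0.73). The 1 call in this list was Vpreb3, a surrogate light chain-related protein of the ER, with 0.0175 and 0.0204 against 0.00936 and 0.00981 (log2 fold change -0.98, SE 0.11, adjusted p = 0.0294).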

How the data were processed

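RNA-seq was measured in 2 control and 2 cKO samples of LPS-stimulated splenic B cells. The authors sequenced 38-base reads of poly(A) RNA, mapped them to mm9 with TopHat, kept reads with a Phred score of at least 25 and removed rRNA and tRNA reads with BEDTools. The submitters' processing notes name CASAVA 1.8, Bowtie, TopHat2 2.0, SAMtools and bedtools. The authors deposited a score for each of 30041 genes with no stated unit. The step from reads to score is not given in the sources used here, and neither is the use of strand. The labels and the methods give the LPS dose in different units, and it is not printed.

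Groups were taken from the labels. Differential expression of the 9727 genes that reached a score of 0.005 in any sample was tested two-sided on log2(score + 0.0001), using the functions lmFit and eBayes (trend=TRUE) of limma 3.58.1 under R 4.3.3, with Benjamini-Hochberg adjustment over all of them and a threshold of 0.05. Fold changes are on that scale, which understates the change of low genes. An exact permutation test of 2 against 2 samples cannot give a two-sided p below 0.333, so none was used. The pipeline was tested on simulated data with independent noise and larger changes than those of most members. That run does not show how well changes of the members' size are detected. The members, the lists and their roles were chosen with earlier results of these data known, so counts over the set carry no test. Genes given in full are each called member, the 10 members with the largest absolute fold change, the 3 sensors, Igj, Txndc5, Hspa5, Hsp90b1, Sec61a1, Sec61b, Sel1l, Herpud1 and Derl3, and outside the set Nfkbiz, Xbp1, Atf4, Ddit3, Prdm1, Irf4 and called genes of the lists. Others are named for their role.

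Same-numbered control and cKO samples deviated from their group means with a correlation of -0.145 (Spearman -0.291) across 9727 genes, so the shared number was not taken as a pairing. Gene spans were read from GENCODE on NCBIM37, and promoter windows from RefSeq on GRCm38.p6 with Python 3.11.15 and pandas 2.3.3. Depth was inferred from steps in the low scores of genes with 600 to 1600 exon bases, and a whole fraction of the true step would match as well, so the true depth could be lower by a whole factor.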

Additional observations from a re-analysis of the deposited data

How the results depend on the processing

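Of 579 values that the alternatives gave for the 50 tested members, 538 stayed on their side of the threshold with no change of sign, 17 lost it, 22 gained it and 2 changed sign, Dnajb9 (-0.01 to 0.14 with 1 sample left out) and Derl2 (-0.11 to 0.15). Sec61a1, at 0.00 and so without a direction, ran from -0.05 to 0.05. For 17 other named genes the numbers were 165, 18, 9 and 3 of 195, and the changes of sign were in Ddit3 (-0.10 to 0.19) and Xbp1 (-0.16 to 0.38). None of these genes was called. No member was called higher under any alternative. The 3 members called lower became 0 of 52 with no filter, 0 without the variance trend and 1 with quantile normalization (Creld2). At an unadjusted p under 0.05, 26 members were lower with no filter, beside 1538 of all 21582 genes. Without the trend 22 were lower, beside 1000 of all 9727 genes. With the filter above 0.05 they became 5 of 29 (Sec61g, Spcs2, Sec11c, Canx and Manf), beside 88 of all 1933 genes. Creld2, Ero1lb and Derl3 did not enter that test. A pseudocount of 0.001 and scaling to equal medians each gave 3, the same genes. Members with each cKO score below each control score numbered 37 with equal medians and 35 with quantile normalization, against 38. Leaving out 1 sample gave 0 to 13 members (0 without cKO 1 or cKO 2, with 14 and 18 unadjusted; 1 without control 1; 13 without control 2) and medians of the members from -0.32 to -0.16. There the lone sample was assumed to vary like the other group. Over all genes, calls of lower genes likewise vanished without either cKO sample and were most numerous without control 2. They rose without control 1, where the member count fell. By role, the median ran from -0.60 to -0.30 for chaperones, from -0.34 to -0.21 for oxidative folding and from -0.11 to 0.04 for ERAD when 1 sample was left out. The cause of these differences was not tested.

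With the replicate number as a block, 4 members were called lower (Creld2, Derl3, Manf and Igj), beside 180 of all 9727 genes. In that fit 177 genes were called higher. The crossed pairing, added after seeing the data because same-numbered samples deviated in opposite directions, gave 8 members lower, and 230 genes lower and 212 higher over all genes. Over all genes with no filter, 0 were lower (1538 unadjusted) and 0 higher (1665). There were 22 lower and 11 higher without the trend, and 88 lower and 35 higher with the filter above 0.05. The main fit gave 122 lower and 79 higher. Leaving out 1 sample gave 0 to 391 lower and 0 to 439 higher. The inferred depth limits the genes with the fewest reads most, Fkbp11 and Derl3.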
